A study of Mus musculus with 9 samples.

Results

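Branched-chain amino acid breakdown was followed through 10 genes taken by symbol from the count table: the aminotransferase genes Bcat1 and Bcat2, the dehydrogenase complex genes Bckdha, Bckdhb and Dbt, its kinase gene Bckdk and phosphatase gene Ppm1k, and the leucine-branch genes Ivd, Mccc1 and Mccc2. The table held all 10 among its 32594 genes, and all 10 were among the 15873 genes that passed the filter on low counts. RNA sequencing had been done on hindlimb skeletal muscle of 5 wild type libraries and 4 libraries of SMN delta 7 mice, which the labels call Spinal motor atrophy mice (SMA here), with FVB/N as the strain background of both groups. SMN delta 7 is a mouse model of spinal muscular atrophy, in which shortage of the SMN protein is followed by motor neuron loss and muscle wasting. The labels give neither age, sex, transgenes nor littermates, and do not say that each library is a separate animal, so the p-values below cover only the variation among the libraries, part of which may be technical.

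Leucine, isoleucine and valine share their first steps of breakdown. An aminotransferase moves the amino group to 2-oxoglutarate, and the branched-chain 2-oxoacid dehydrogenase complex in mitochondria then removes a carboxyl group in a step that cannot be reversed. The complex is switched off when its kinase phosphorylates the E1 alpha subunit and on again when its phosphatase removes the phosphate. Skeletal muscle is known for high aminotransferase activity, and the nitrogen it takes from these amino acids leaves the tissue largely as glutamine and alanine.

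Libraries held 24917665 to 35087722 counts. Levels below are in CPM, counts scaled to library size with TMM factors, and a change is called where edgeR's quasi-likelihood test gave an adjusted p under 0.05 over all genes tested. Smn1, the gene for the SMN protein, stood at 11.1 to 13.8 CPM in wild type and 1.40 to 2.72 CPM in SMA, as the labels say. Genes that mark muscle fibres (Ckm, Acta1, Mylpf, Tnnt3, Des and Mb) summed to 85244 to 123642 CPM in wild type and 48427 to 57197 CPM in SMA. Of the 6, 5 fell, where 27.2% of all genes tested fell. The part of this fall in the changes below was not tested. On the second principal component SMA 3 was far from its group, and wild type 5 was the highest wild type library for 9 of the 10 breakdown genes. Wild type 5 also held the most adipocyte marker RNA, at 221 CPM summed over 8 genes against 33.8 to 93.6 CPM in the other wild type libraries. Of its 221 CPM, 119 CPM was Ucp1. It was the highest wild type library for the fibre markers as well, at 123642 CPM against at most 110674 CPM in the others. The same held for the mitochondrial content genes named further below, at 11605 CPM against at most 10389 CPM. Y-linked genes were expressed in 4 of 5 wild type and 1 of 4 SMA libraries, so sex was nearly confounded with group. Each sex left 1 group with a single library, so no test within a sex was made.

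The mitochondrial aminotransferase gene Bcat2, the E1 alpha gene Bckdha, the phosphatase gene Ppm1k and the leucine-branch gene Ivd rose 1.87-fold to 2.69-fold in SMA. The kinase gene Bckdk fell 1.23-fold, the carboxylase subunit gene Mccc2 fell 1.44-fold and the cytosolic aminotransferase gene Bcat1 fell 2.71-fold. Bckdhb, Dbt and Mccc1 did not pass. The test called 7 of the 10 genes, against 54.9% of all genes tested. Of the 10, 4 rose where 27.7% of all genes tested rose, and 3 fell where 27.2% of all genes fell. Every SMA library lay above every wild type library for 4 of the 10, the genes that rose, against 22.5% of all genes tested. For 3 of the 10, the genes that fell, every SMA library lay below every wild type library, against 21.7% (44.2% for both directions). Past a 2-fold change, Ppm1k was the 1 gene that rose, against 8.27% of all genes, and Bcat1 the 1 that fell, against 6.28%. The median log2 fold change of the 10 genes was 0.099, beside 0.0060 over all genes tested. In bulk tissue, fewer cells of a type and less RNA per cell cannot be told apart.

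**Figure D1:**
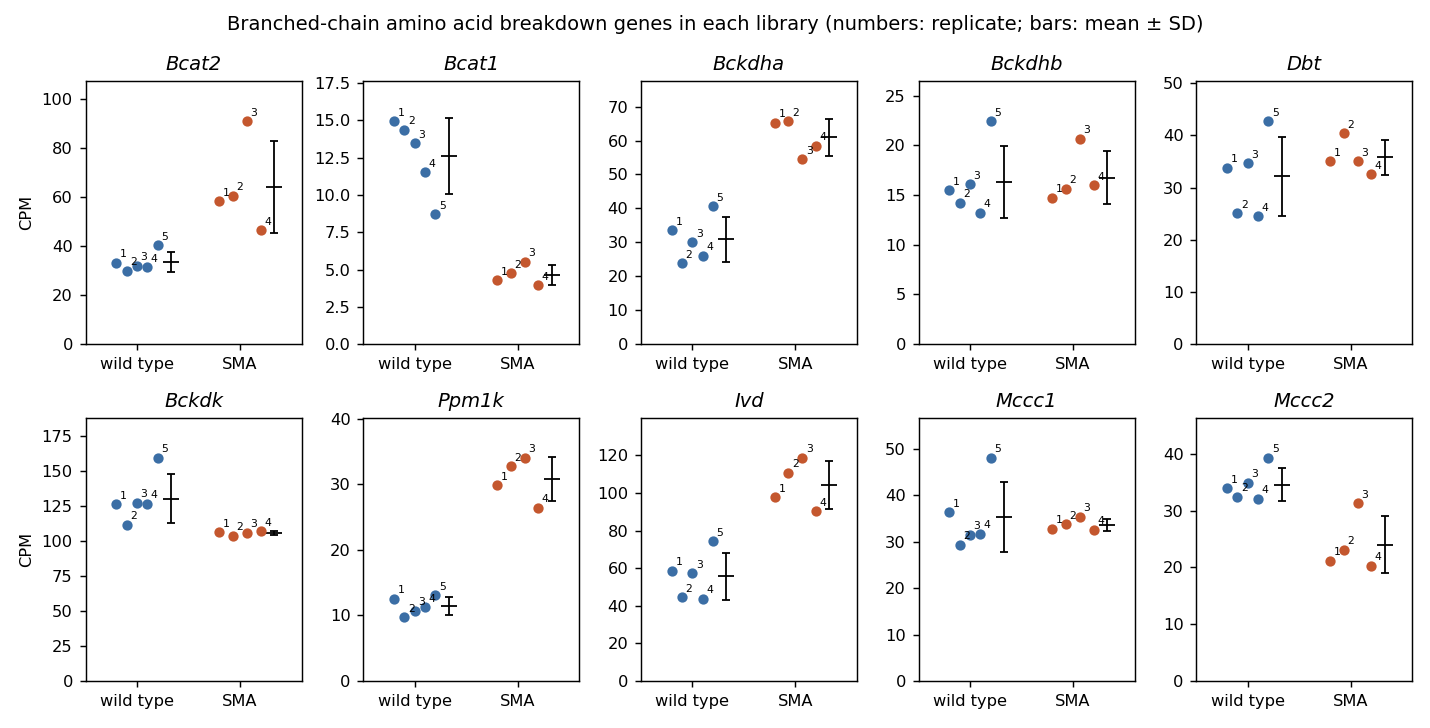
Level of each of the 10 breakdown genes in each library, in CPM on axes that start at 0, with points numbered by replicate and bars for mean ± SD (n = 5 wild type, n = 4 SMA). For Bcat2, Bckdha, Ppm1k and Ivd all SMA points lie above all wild type points, and for Bcat1, Bckdk and Mccc2 all lie below.

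The aminotransferases moved in opposite directions. Bcat2 (chromosome 7, 45570153 to 45589711, plus strand, mm10), whose mitochondrial enzyme carries out most of this step in muscle, was at 33.2, 29.9, 32.0, 31.3 and 40.4 CPM in wild type 1 to 5. It was at 58.2, 60.5, 90.9 and 46.5 CPM in SMA 1 to 4. All SMA libraries were higher, and SMA 3 was the highest of the 9. Bcat2 rose by 0.94 ± 0.16 on the log2 scale (SE; edgeR adjusted p = 0.000467), and by 0.72 without SMA 3. An antisense gene, 0610005C13Rik, shares 622 bases of exon with Bcat2 and had a mean of 0.406 CPM in wild type and 0.701 CPM in SMA.

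Bcat1 (chromosome 6, 144993835 to 145076184, minus strand) encodes the cytosolic form, which is best known from brain and from dividing or immature cells. Its level was 14.9, 14.4, 13.4, 11.5 and 8.72 CPM in wild type and 4.29, 4.76, 5.53 and 3.96 CPM in SMA. All SMA libraries were lower, and wild type 5 was the lowest wild type library. Bcat1 fell by 1.44 ± 0.16 on the log2 scale (edgeR adjusted p = 1.97e-05). Markers of several other cell types fell too. Their counts stand beside the 27.2% of all genes tested that fell and the 27.7% that rose. All 6 dividing cell markers fell, from a summed 110 to 146 CPM in wild type to 29.7 to 37.8 CPM in SMA. Wild type 5 was the lowest wild type library for this sum, and also for the macrophage, fibroblast, satellite cell and Schwann cell sums below. Among the SMA libraries, SMA 3 was the highest for Bcat1 but the lowest for the dividing cell sum, at 29.7 CPM against 34.6 to 37.8 CPM. SMA 3 was also the lowest SMA library for the macrophage, fibroblast and satellite cell sums, and the highest for the Schwann cell sum. Of 6 macrophage markers 4 fell (96.1 to 124 CPM against 54.2 to 72.9 CPM), and of 6 fibroblast markers 5 fell and 1 rose (1258 to 2730 CPM against 706 to 996 CPM). Satellite cell markers went the other way, with 4 of 4 higher (15.2 to 20.9 CPM against 23.7 to 31.1 CPM), as did 5 of 6 Schwann cell markers (386 to 885 CPM against 985 to 2223 CPM). Of 8 adipocyte markers 3 fell (33.8 to 221 CPM against 26.4 to 53.4 CPM), of 5 endothelial markers 2 fell (481 to 614 CPM against 469 to 545 CPM), and all 3 red cell markers tested fell. Lymphocyte markers summed to at most 3.40 CPM in any library. No marker of these lists was at 0 in every library, and their part in the fall of Bcat1 was not tested.

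The ratio of Bcat1 to Bcat2 counts in a library does not depend on library scaling. It was 0.450, 0.481, 0.420, 0.368 and 0.216 in wild type 1 to 5 and 0.0738, 0.0787, 0.0608 and 0.0850 in SMA 1 to 4. Wild type 5 was nearest to the SMA libraries but did not reach them. The log2 ratio differed by -2.33, from -1.42 ± 0.46 (SD, n = 5) to -3.75 ± 0.21 (SD, n = 4), with a two-sided exact permutation p of 0.00794 and 0.00992 adjusted over 5 ratios. No smaller p is possible with 5 libraries against 4.

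Within the dehydrogenase complex the E1 alpha gene changed and the others were not called. Bckdha (chromosome 7, 25629946 to 25658981, minus strand), which encodes the subunit that the kinase phosphorylates, was at 33.7, 23.9, 30.1, 26.1 and 40.7 CPM in wild type and 65.3, 65.7, 54.5 and 58.5 CPM in SMA. Every SMA library was above every wild type library, with wild type 5 the nearest. Bckdha rose by 0.98 ± 0.14 on the log2 scale (edgeR adjusted p = 9.35e-05). In GENCODE M21 it shares 1171 of its 1899 bases of exon with B3gnt8 on the opposite strand. The strand setting of the counting is not given in the sources used here. B3gnt8, a glycosyltransferase gene, rose by 0.90 ± 0.10, from 6.01 ± 0.46 to 11.2 ± 1.25 CPM. Bckdha went from 30.9 ± 6.62 to 61.0 ± 5.45 CPM, and whether the 2 genes share reads was not tested. That limit also holds for the ratios and the level per kilobase below that use Bckdha.

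Bckdhb (chromosome 9, 83925145 to 84124240, plus strand), the gene of the E1 beta subunit, was at 15.5, 14.2, 16.1, 13.2 and 22.4 CPM in wild type and 14.7, 15.6, 20.7 and 16.0 CPM in SMA. The groups overlapped, with wild type 5 and SMA 3 highest. Its log2 fold change was 0.041 ± 0.15 (edgeR adjusted p = 0.837). Dbt (chromosome 3, 116513070 to 116549981, plus strand) encodes the E2 core, which carries the intermediate on a lipoyl arm. Its values were 33.8, 25.1, 34.7, 24.5 and 42.7 CPM in wild type and 35.1, 40.5, 35.1 and 32.5 CPM in SMA. These overlapped too, with the highest library and the lowest both wild type. Its log2 fold change was 0.16 ± 0.15 (edgeR adjusted p = 0.399), and it passed at 0.41 when libraries were scaled to total counts alone (adjusted p = 0.0113).

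The balance of the E1 transcripts shifted towards the alpha subunit. From wild type (n = 5) to SMA (n = 4) the log2 ratio of Bckdha to Bckdhb counts went from 0.92 ± 0.14 to 1.87 ± 0.34 (mean ± SD), a difference of 0.95 (exact permutation p = 0.00794, adjusted p = 0.00992). SMA 3, at 1.40, was the lowest SMA library, and the other SMA libraries lay between 1.87 and 2.15. The wild type libraries lay between 0.75 and 1.12.

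Transcripts of the phosphatase rose and came closer in level to those of the kinase. Ppm1k (chromosome 6, 57506502 to 57535468, minus strand), the phosphatase gene of the complex, was at 12.5, 9.71, 10.7, 11.2 and 13.1 CPM in wild type and 29.8, 32.7, 34.0 and 26.5 CPM in SMA. The lowest SMA library was above the highest wild type library by a wide margin. Ppm1k rose by 1.43 ± 0.11 on the log2 scale (edgeR adjusted p = 8.01e-07), more than any other of the 10 genes. Bckdk (chromosome 7, 127904082 to 127910221, plus strand), the kinase gene, was at 126.3, 112, 127, 127 and 159 CPM in wild type and 106, 104, 106 and 107 CPM in SMA. The SMA libraries lay close together and just below the lowest wild type library. Bckdk fell by 0.30 ± 0.096 on the log2 scale (edgeR adjusted p = 0.019). That call was lost when libraries were scaled to total counts alone, with -0.055 and an adjusted p of 0.556, and with sex as a covariate, at 0.0719. It was also lost with the replicate number as a block, at 0.0577.

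Counts of Bckdk per count of Ppm1k were 10.1, 11.5, 11.9, 11.3 and 12.2 in wild type 1 to 5 and 3.56, 3.17, 3.12 and 4.05 in SMA 1 to 4. The values of each group were narrow and far from those of the other. The geometric mean ratio went from 11.3 to 3.45, a 3.29-fold decrease, with log2 means of 3.50 ± 0.11 and 1.79 ± 0.18 (SD; two-sided exact permutation p = 0.00794, adjusted p = 0.00992). The ratio of the kinase gene to Bckdha, the gene of its substrate subunit, also fell. It was 3.75 to 4.85 in wild type and 1.58 to 1.95 in SMA, a log2 difference of -1.29 with the same exact and adjusted p. These 2 ratios share Bckdk, so they are not separate results. RNA levels do not measure the phosphorylation of the complex.

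**Figure D2:**
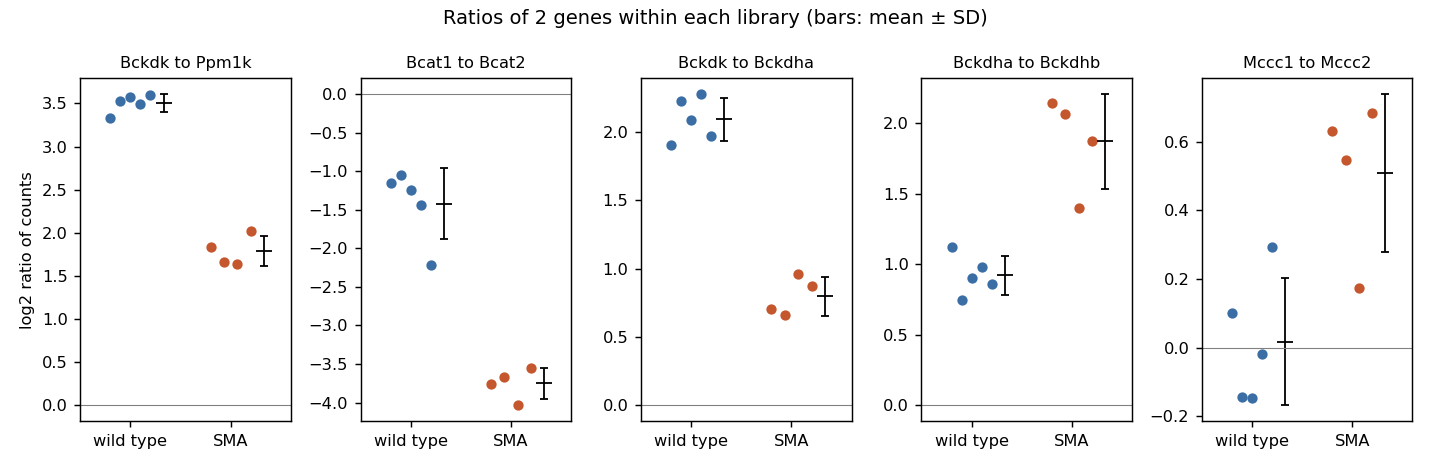
Log2 ratio of the counts of 2 genes in each library, with wild type in blue, SMA in orange and bars for mean ± SD (n = 5 and 4); each panel has its own axis. The groups are separate for Bckdk to Ppm1k, Bcat1 to Bcat2, Bckdk to Bckdha and Bckdha to Bckdhb, and overlap for Mccc1 to Mccc2.

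In the leucine branch Ivd rose, Mccc2 fell and Mccc1 did not pass. Ivd (chromosome 2, 118861954 to 118882909, plus strand), whose enzyme isovaleryl-CoA dehydrogenase oxidises the product that the complex makes from leucine, was at 58.7, 44.6, 57.1, 43.8 and 74.4 CPM in wild type and 97.7, 111, 119 and 90.3 CPM in SMA. All SMA libraries were higher, and wild type 5 was the nearest to them. Ivd rose by 0.91 ± 0.15 on the log2 scale (edgeR adjusted p = 0.000295). The next enzyme, methylcrotonyl-CoA carboxylase, is built from a biotin-bearing alpha subunit (Mccc1) and a beta subunit (Mccc2).

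Mccc1 (chromosome 3, 35959312 to 36000678, minus strand) was at 36.4, 29.4, 31.5, 31.7 and 48.1 CPM in wild type and 32.8, 33.7, 35.4 and 32.7 CPM in SMA. The SMA values all lay inside the wild type range. Its log2 fold change was -0.073 ± 0.13 (edgeR adjusted p = 0.652). Mccc2 (chromosome 13, 99948530 to 100015639, minus strand) was at 33.9, 32.5, 34.9, 32.1 and 39.3 CPM in wild type and 21.2, 23.1, 31.3 and 20.3 CPM in SMA. The groups did not overlap, although SMA 3 came just below the lowest wild type library. Mccc2 fell by 0.52 ± 0.12 on the log2 scale (edgeR adjusted p = 0.00341), but did not pass with total-count scaling, at -0.28 with an adjusted p of 0.104. From wild type (n = 5) to SMA (n = 4) the log2 ratio of Mccc1 to Mccc2 counts went from 0.017 ± 0.18 to 0.51 ± 0.23 (mean ± SD; exact permutation p = 0.0238, adjusted p = 0.0238). Here the groups overlapped, since SMA 3 at 0.18 was below wild type 5 at 0.29, and the p rose to 0.0571 without wild type 1, 2, 3 or 4 and to 0.0536 without SMA 1 or SMA 4.

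**Figure D3:**
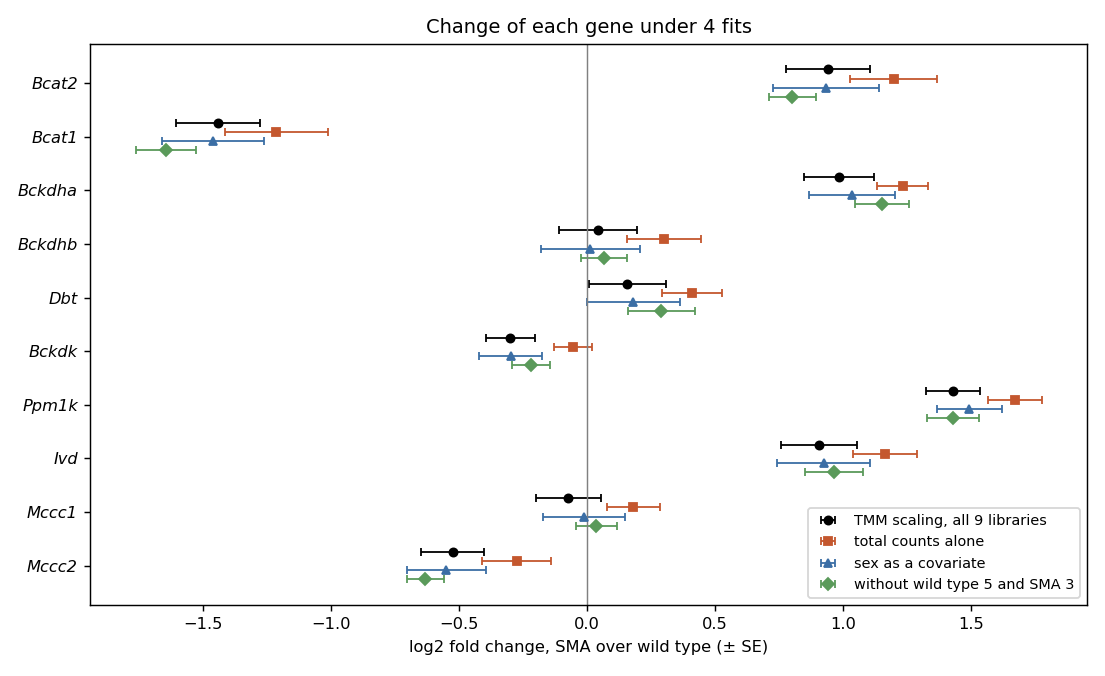
Log2 fold change of SMA over wild type (± SE) for each gene under 4 fits: TMM scaling of all 9 libraries, scaling to total counts, sex as a covariate, and without wild type 5 and SMA 3. Scaling to total counts moves every gene to the right, and Bcat2, Bckdha, Ppm1k and Ivd stay above 0 and Bcat1 below 0 in all 4. Bckdk and Mccc2 also stay below 0 and Dbt and Bckdhb above 0, though none of these was called in all 4. Mccc1 changes side.

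Compared per kilobase of exon, the order of the genes changed between groups. In wild type the kinase gene Bckdk was the highest of the 10 in all 5 libraries, with 35.3 ± 4.75 CPM per kilobase (SD, n = 5), and Bckdha was second, with 16.3 ± 3.49. In SMA they stood at 28.6 ± 0.40 for Bckdk and 32.1 ± 2.87 for Bckdha (SD, n = 4), and in SMA 3 both were at 28.7. Mccc2 was the third gene in each wild type library, at 12.3 ± 1.03, and its range overlapped that of Ivd but not that of Bcat2. Ivd, Dbt, Bckdhb and Bcat2 followed with ranges that overlapped, down to 8.56 ± 1.06 for Bcat2. In SMA, Ivd at 19.0 ± 2.32 and Bcat2 at 16.4 ± 4.85 overlapped each other, Dbt stood at 10.7 ± 0.997, Bckdhb at 9.28 ± 1.47 and Mccc2 at 8.56 ± 1.80. Mccc1 (3.23 ± 0.69 and 3.07 ± 0.11), Ppm1k (1.90 ± 0.23 and 5.11 ± 0.56) and Bcat1 (1.35 ± 0.27 and 0.50 ± 0.073) were the lowest. These are also the genes with the most exon bases, at 10952, 6022 and 9322. Before division by length, Mccc1 and Mccc2 were close in wild type, with means of 35.4 and 34.5 CPM, but Mccc2 has 2802 exon bases. The order of the genes thus depends on the lengths used, and which transcripts were expressed was not tested. The phosphatase gene stayed below the kinase gene in every library on this scale. Lengths are the joined exons of GENCODE M21, and the annotation behind the counts is not given in the sources used here.

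**Figure D4:**
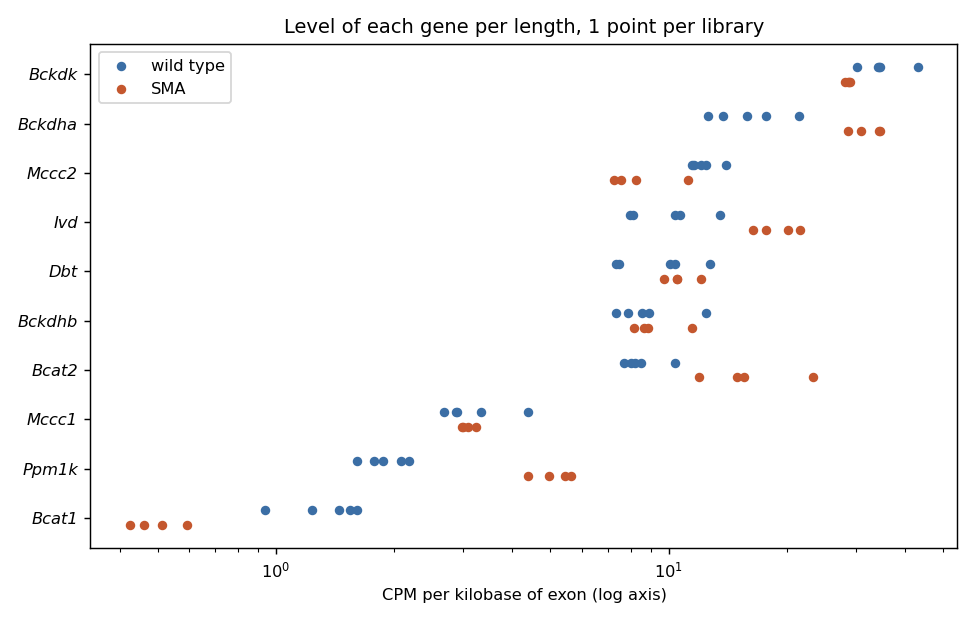
CPM per kilobase of exon on a log axis, 1 point per library, with genes ordered by their wild type mean. Bckdk is the highest gene in wild type at 35.3, and Bckdha has moved up beside it in SMA at 32.1.

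The sequences before the start sites are shown for Bcat2, Ppm1k and Ivd, which rose, and for Bcat1, the gene that fell most, so that their letters can be compared. They are RefSeq promoters of GRCm38.p6, 5′ to 3′ on the gene's strand, kept only up to the first start in RefSeq or GENCODE M21, at chr7:45569903-45570152 for Bcat2 (plus strand), chr6:57535488-57535737 for Ppm1k (minus), chr2:118861744-118861953 for Ivd (plus) and chr6:145076185-145076407 for Bcat1 (minus). Capitals mark CCAAT boxes, written CCAAT or ATTGG, and a KLF box, written GGGTGTGG. Bckdha is not shown because 30 bases of its window lie before the GENCODE M21 start.
Bcat2: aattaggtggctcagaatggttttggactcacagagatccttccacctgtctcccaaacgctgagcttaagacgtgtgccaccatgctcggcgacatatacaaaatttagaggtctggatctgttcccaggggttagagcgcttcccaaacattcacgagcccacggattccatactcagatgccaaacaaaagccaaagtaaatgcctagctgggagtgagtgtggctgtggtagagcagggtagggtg
Ppm1k: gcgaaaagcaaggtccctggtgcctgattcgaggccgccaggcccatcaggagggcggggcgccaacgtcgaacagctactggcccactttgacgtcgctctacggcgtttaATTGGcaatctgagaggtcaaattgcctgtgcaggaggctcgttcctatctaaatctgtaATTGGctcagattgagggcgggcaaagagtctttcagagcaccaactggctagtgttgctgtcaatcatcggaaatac
Ivd: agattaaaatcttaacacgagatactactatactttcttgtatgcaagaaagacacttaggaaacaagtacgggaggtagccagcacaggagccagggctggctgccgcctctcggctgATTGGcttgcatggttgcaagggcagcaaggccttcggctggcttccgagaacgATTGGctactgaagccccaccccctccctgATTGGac
Bcat1: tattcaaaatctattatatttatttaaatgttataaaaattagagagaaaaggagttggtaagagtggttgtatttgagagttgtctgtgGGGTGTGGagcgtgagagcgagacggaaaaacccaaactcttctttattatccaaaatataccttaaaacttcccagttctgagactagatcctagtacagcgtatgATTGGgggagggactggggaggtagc

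Of the 10 genes, 9 had an entry in the promoter table, with 12 start sites, and Dbt had none. Motifs were searched on both strands of the 300 bases from 250 before to 50 after each start. The oestrogen-related receptor site TNAAGGTCA was in 0 of the 12 windows and in 1.28% of all 32851 promoters. The NRF1 core GCGCATGC was also in 0 of the 12, and in 2.71% of all. The KLF box CCACACCC, a sequence bound by Krüppel-like factors, was in 1 of the 12, that of Bcat1 (position -160 from the start, shown above), and in 3.56% of all. The CCAAT box, which was searched only after the sequences had been seen, was in 8 of the 12 windows and in 37.4% of all promoters. Ivd held 4 of them, 3 in the stretch shown, and Mccc1 and Mccc2 3 each, where 3.37% of all promoters held 3 or more. In Mccc2 the matches at -33 and -30 are on opposite strands and share bases. Such overlapping matches were counted separately in all promoters. Bcat2 and Bckdha held 0, so the 4 genes that rose did not share this box. A match is a string of letters and not a bound site.

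Counts for the lists of related genes stand beside the 27.7% of all genes that rose and the 27.2% that fell. Among Dld, which encodes the E3 subunit that several dehydrogenase complexes share, and 4 genes of the end steps of leucine breakdown, 2 of 5 rose and 1 fell, with a median log2 fold change of -0.19. Auh, the hydratase gene after the carboxylase, rose by 0.59 ± 0.090 on the log2 scale (edgeR adjusted p = 0.000166). Acat1, which splits acetoacetyl-CoA, rose by 0.79 ± 0.077, from 186 ± 12.1 to 321 ± 11.5 CPM (SD, n = 5 and 4; edgeR adjusted p = 6.57e-06). Oxct1, the gene through which muscle uses ketone bodies, fell by 2.26 ± 0.31, from 101, 81.8, 98.4, 90.4 and 210 CPM in wild type to 19.6, 21.3, 37.5 and 18.4 CPM in SMA (edgeR adjusted p = 7.29e-05). No SMA library reached the lowest wild type value for Oxct1, and wild type 5 was far above the others.

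Of 7 genes of the valine and isoleucine steps, 4 rose and 2 fell, with a median of 0.33. Aldh6a1, the semialdehyde dehydrogenase at the end of valine breakdown, rose by 0.82 ± 0.16 (edgeR adjusted p = 0.00113), and Echs1, a hydratase that fatty acid oxidation also uses, by 0.68 ± 0.11 (edgeR adjusted p = 0.000387). Hibch, the hydrolase between them in valine breakdown, fell by 0.66 ± 0.14, from 39.9 ± 9.06 to 25.2 ± 1.498 CPM (edgeR adjusted p = 0.00162). Acad8, the isobutyryl-CoA dehydrogenase gene, fell by 0.25 ± 0.096 (edgeR adjusted p = 0.0406). The Acad8 call was lost with scaling to total counts (-0.0082), with sex as a covariate, with the replicate block, and without wild type 1, 4 or 5 or any 1 of the SMA libraries 1, 2 and 4.

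Propionyl-CoA, which isoleucine and valine yield, is carboxylated and rearranged to succinyl-CoA by enzymes that need biotin and cobalamin. Of 6 propionate genes 0 rose and 3 fell, with a median of -0.31. Mmab, which makes the cobalamin cofactor, fell by 1.52 ± 0.18, from 22.2 ± 3.27 to 7.71 ± 2.47 CPM (edgeR adjusted p = 2.95e-05). Mmaa, which helps load that cofactor, fell by 0.50 ± 0.089 (edgeR adjusted p = 0.000556), a call lost under scaling to total counts at -0.26. Pcca, the biotin-bearing carboxylase subunit, fell by 0.60 ± 0.12 (edgeR adjusted p = 0.00101). Among 6 genes that supply biotin and lipoate 1 rose and 1 fell, with a median of 0.033. Hlcs, which attaches biotin to carboxylases, fell by 0.71 ± 0.13 (edgeR adjusted p = 0.00062), and Slc5a6, a vitamin transporter gene that carries biotin, rose by 0.58 ± 0.13 (edgeR adjusted p = 0.00314). Btd, which recycles biotin, had 0.20 ± 0.12 (edgeR adjusted p = 0.172), and passed without SMA 3 (0.0226), without wild type 5 and SMA 3 together (0.0319) and with scaling to total counts (0.42, adjusted p = 0.0199).

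**Figure D5:**
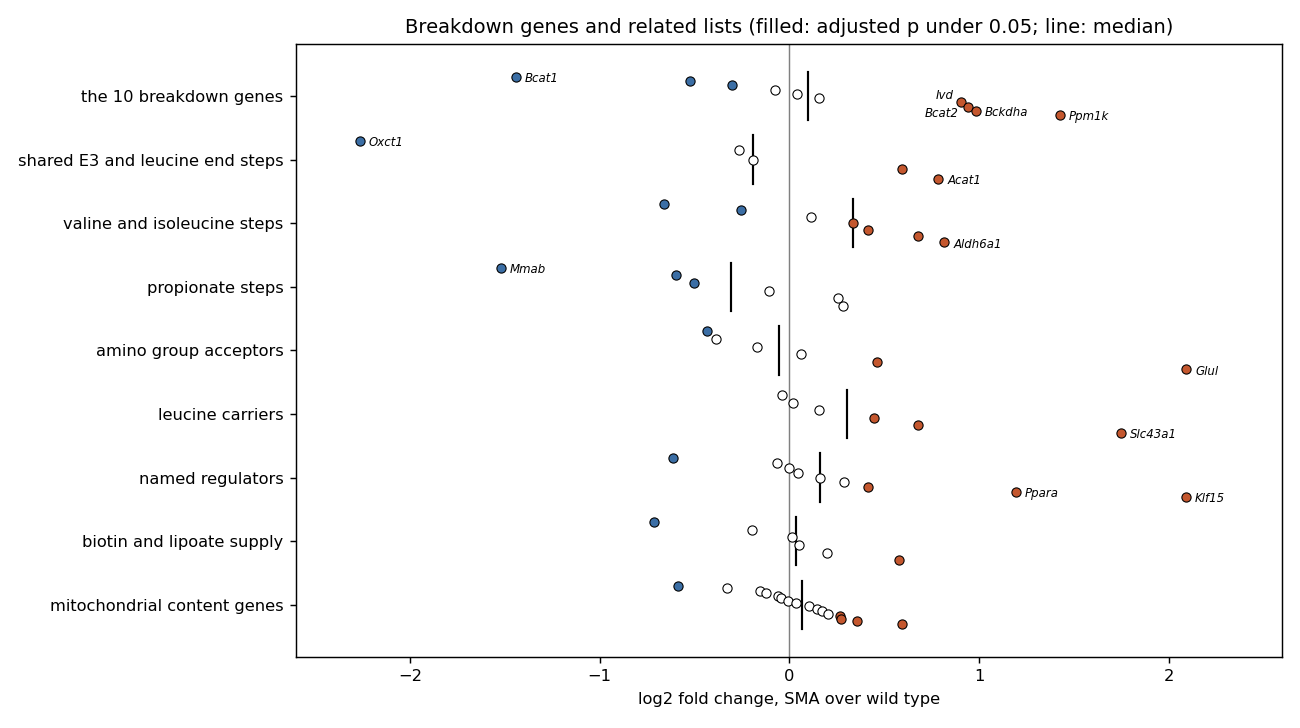
Log2 fold change of SMA over wild type for the 10 breakdown genes and 8 related lists, 1 point per gene, filled where the adjusted p was under 0.05 (orange rose, blue fell), with a line at each list's median. The propionate list has no gene that rose, and the leucine carrier list has none that fell.

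Of 6 amino group acceptor genes 2 rose and 1 fell, with a median of -0.055. Glul, the glutamine synthetase gene, rose by 2.09 ± 0.23, from 81.6 ± 27.7 to 348 ± 90.5 CPM (edgeR adjusted p = 1.55e-05). Gpt, an alanine aminotransferase gene, rose by 0.46 ± 0.13 (edgeR adjusted p = 0.0113), which did not pass with sex as a covariate, at 0.0874. Its level without SMA 3 rose by 0.27 (adjusted p = 0.00689). Glud1, the glutamate dehydrogenase gene, fell by 0.43 ± 0.087 (edgeR adjusted p = 0.00125), and did not pass under scaling to total counts, at 0.0591.

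Of 6 leucine carrier genes 3 rose and 0 fell, with a median of 0.30. Slc43a1, a carrier for branched-chain and other large neutral amino acids, rose 3.36-fold, from 12.1 ± 1.38 to 40.7 ± 6.91 CPM (edgeR adjusted p = 4.79e-07). Slc7a8 rose by 0.68 ± 0.12 and Slc7a5 by 0.45 ± 0.11 on the log2 scale (edgeR adjusted p = 0.000439 and 0.00366), and both encode light chains of exchangers for large neutral amino acids. Slc25a44, the mitochondrial carrier of branched-chain amino acids, was at 24.7 CPM in wild type and 25.1 CPM in SMA on average, with 0.018 ± 0.077 (edgeR adjusted p = 0.856).

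Of 9 regulator genes 3 rose and 1 fell, with a median of 0.16. Klf15, a transcription factor known to promote branched-chain amino acid breakdown in muscle, was at 9.36, 10.9, 12.3, 12.0 and 19.3 CPM in wild type and 63.8, 65.9, 50.7 and 37.1 CPM in SMA. The groups were well apart, and Klf15 rose by 2.09 ± 0.21 on the log2 scale (edgeR adjusted p = 7.35e-06). Ppara, a lipid-sensing receptor gene, rose by 1.195 ± 0.201 (edgeR adjusted p = 0.000364), and Nr3c1, the glucocorticoid receptor gene, fell by 0.62 ± 0.11 (edgeR adjusted p = 0.000641). Of 16 genes that follow mitochondrial content 4 rose and 1 fell, with a median of 0.069, beside 0.0060 over all genes. In it Phb2 rose by 0.59 ± 0.078 (edgeR adjusted p = 6.2e-05), Tomm40 by 0.36 ± 0.095 (edgeR adjusted p = 0.00696) and Sdha fell by 0.59 ± 0.14 (edgeR adjusted p = 0.00351). The Tomm40 call was lost with sex as a covariate, at 0.0539.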

How the data were processed

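The deposited file used holds raw counts per gene and library, not normalized, which the authors made from RNA sequencing of 9 muscle libraries. Per the labels' protocols, a stranded mRNA kit was used and paired ends of 75 bases were read. Per the submitters' processing notes, HTSeq 0.9.1, DESeq2 1.16.1 and mm10 were used, with no role stated. Aligner, annotation and strand setting were not given in the sources used here. A deposited table of normalized counts was left aside.

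The tests here used edgeR 4.0.16 (R 4.3.3) on the 9 libraries: filterByExpr, TMM scaling, a quasi-likelihood fit on group alone, and Benjamini-Hochberg adjustment over 15873 genes. The SE is the log2 fold change divided by the square root of F. The procedure was tested on simulated counts in which a small part of the genes changed, drawn evenly up and down. That setting differs from these data, where 54.9% of all genes tested were called, so it does not test the scaling here. Log2 ratios of 2 genes used a pseudocount of 0.5 and two-sided exact permutation tests. The members and lists were chosen with earlier results of these data known. Of 118 other listed genes, 116 matched by symbol. In each related list, the 3 genes with the lowest adjusted p and any that moved against the list's majority were named. Slc25a44 was named after its values were seen, and B3gnt8 and 0610005C13Rik for sharing exon bases. On the opposite strand, Bcat1 also shares 337 bases of exon with Gm26666. Mccc1 shares 321 with B230207O21Rik, 198 with Mccc1os and 94 with Gm15952. Of these only Mccc1os was in the counts, with 62 over all libraries against 9680 for Mccc1. Depth was 24917665 to 35087722 counts per library. Within groups, chi-square per degree of freedom was 11.2 to 81.3, so no library was a copy of another. Alternatives were DESeq2 1.42.0, limma 3.58.1 (voom), other scalings and filters, covariates, and leaving out libraries. Gene places and exon lengths are those of GENCODE M21, and promoters are RefSeq's for GRCm38.p6.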

Additional observations from a re-analysis of the deposited data

Results flagged for a closer look

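Among 32 sets of values (the 10 breakdown genes, Smn1 and 5 log2 ratios, each in wild type and in SMA), 1 held a library far from the rest of its group. Smn1 in wild type 4 was 11.1 CPM, against 13.1 to 13.8 CPM in the other wild type libraries and at most 2.72 CPM in SMA. Chance flags about 1 in 20 such groups.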

How the results depend on the processing

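The 4 genes that rose and Bcat1 kept direction and call under all 19 alternatives of the fit. Scaling to total counts alone moved the median over all genes from 0.0060 to 0.24 (log2). It lowered the genes that fell from 4319 to 2164 (74.7% of calls then rose, against 50.4%) and the breakdown genes that fell from 3 to 1, with 5 that rose, and raised the genes of the related lists that rose from 19 to 35. Under it Dbt passed at 0.41, Bckdk (-0.055) and Mccc2 (-0.28) lost their calls, and Mccc1, not called, turned to 0.18. Bckdk lost its call with sex as a covariate (-0.30) and with the replicate block (-0.22), under which Mccc1 was 0.066. Same-numbered libraries did not deviate together (correlations of 0.12, -0.0056, -0.048 and 0.097), so the numbers were not treated as pairs. Without wild type 5 and SMA 3 together 4 breakdown genes rose and 3 fell, and Mccc1 was 0.036. Bckdhb, not called, was -0.0086 under upper-quartile scaling. Leaving out 1 library at a time gave -0.076 to 0.18 for Bckdhb, -0.14 to 0.062 for Mccc1, -0.36 to -0.22 for Bckdk with its highest adjusted p at 0.0499, and 0.43 to 0.60 for the log2 ratio of Mccc1 to Mccc2, whose p rose to 0.0571. For the other 4 ratios the groups were fully separate, so leaving out 1 library could not change their direction. Their p was at most 0.0286, and no smaller p is possible with 4 libraries against 4. Of 190 values of the 10 genes under alternatives, 177 kept direction and call. Total counts overlapped between the groups, but TMM factors did not, at 0.828 to 1.03 in wild type and 1.06 to 1.17 in SMA. Sex and group cannot be told apart beyond the covariate fit.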
